A study of Arabidopsis thaliana with 18 samples.

Results

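Messenger RNA levels were measured in whole Arabidopsis thaliana seedlings, and the 23 probe sets described here are those that answered the herbicide norflurazon in the mutant gun5 and hardly in the wild type Col-0 or the mutant gun1-9. They were chosen from the measured values. On the log2(intensity + 1) scale, with the mean of 3 arrays per group, the treated mean had to differ from the untreated mean by at least 1 in gun5 and by less than 0.4 in both other genotypes. Control probe sets of the array maker (64), a block of 150 organelle probe sets and 100 probe sets with gene symbols of 3 large enzyme families were left out, so that 22496 of 22810 probe sets could be chosen. The rule found 10 rises and 13 falls. With the 3 enzyme families kept in, it found the same number, 23.

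The 18 arrays were biotin-labelled Affymetrix hybridisations, 3 biological replicates in each of 6 groups. The groups were Col-0, gun1-9 and gun5, each grown for 5 days under continuous light on medium with sucrose, either without the herbicide or with 5 µM norflurazon from sowing. All 6 groups shared the light, the sugar and the age. The labels name 1 allele for GUN1 and none for GUN5, and each mutant was represented by 1 line. Each group mean rests on 3 values, so the number of arrays limits the precision. The median intensity of an array lay between 14.8 and 16.4, and replicate arrays correlated at 0.992 or more across probe sets.

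Norflurazon blocks carotenoid synthesis, and without carotenoids light damages the chloroplast. Damaged plastids send signals to the nucleus, called retrograde signals, which lower the expression of many nuclear genes for photosynthesis. The gun (genomes uncoupled) mutants were found because such genes stay partly active in them on norflurazon. GUN5 encodes the H subunit of magnesium chelatase, which inserts magnesium into the chlorophyll precursor protoporphyrin, and GUN1 is a plastid protein on which several plastid signals converge. The transcripts of GUN1 and GUN5 themselves were not analysed here.

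The annotation gave a single gene for 13 of the 23 probe sets, 7 rises and 6 falls. One fall, 254389_s_at, matched several genes and is named by its probe set only. The other 9 were not listed and are also named by probe set. The 13 single genes all have locus codes of the nuclear chromosomes, while for the 9 unlisted probe sets a nuclear origin could not be checked. A symbol beyond a locus code was given for 4 genes. FDH is the mitochondrial formate dehydrogenase, which oxidises formate to carbon dioxide. ASPGB1 is an asparaginase, which releases ammonium from asparagine. CSLC04 is a cellulose-synthase-like protein that makes the glucan backbone of xyloglucan, a cell wall polymer. PRN is a pirin, known in Arabidopsis as a partner of the alpha subunit of the heterotrimeric G protein. No role is given for the genes known here by locus code alone.

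A change past these limits in gun5 alone was uncommon among the changes of gun5. In gun5, 643 probe sets were higher and 857 lower by at least 1 with norflurazon (2.86% and 3.81% of those that could be chosen), and 531 of the higher and 660 of the lower ones went the same way by at least 0.4 in both Col-0 and gun1-9. Another 66 higher and 135 lower ones were under 0.4 in Col-0 but not in gun1-9. A further 24 higher and 26 lower ones were under 0.4 in gun1-9 but not in Col-0. The opposite direction in Col-0, by at least 0.4, was found for 14 of those higher and 17 of those lower in gun5. The mirrored rule gave 314 probe sets for Col-0 alone (89 rises and 225 falls) and 68 for gun1-9 alone (47 rises and 21 falls). The mirrored counts are descriptions of the same thresholds, with no test.

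**Figure D1:**
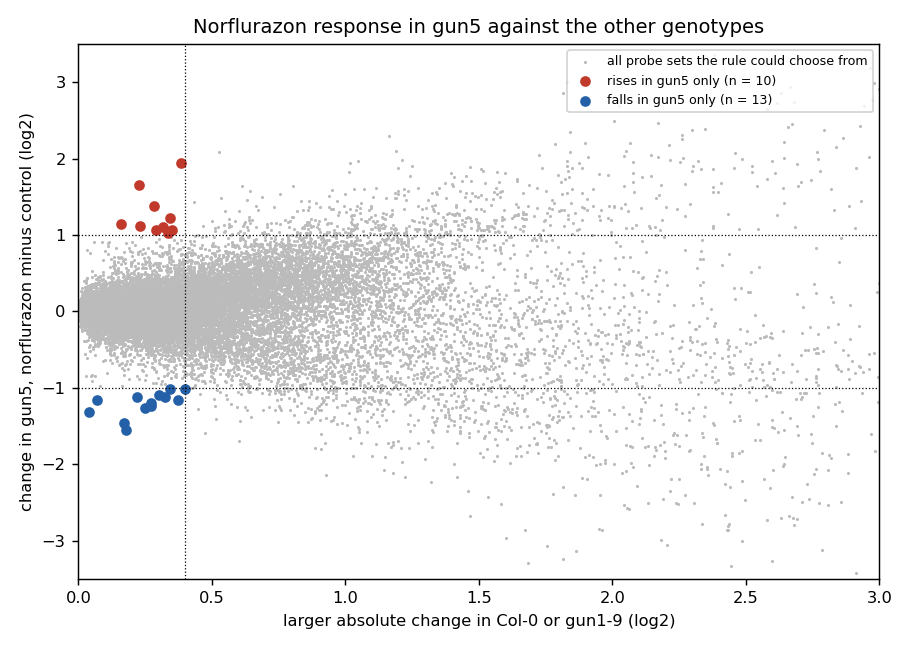
Change with norflurazon in gun5 (vertical axis, log2) against the larger absolute change in Col-0 or gun1-9 (horizontal axis, log2), 1 point per probe set that could be chosen. Dotted lines mark the thresholds of 1 and 0.4; the 10 rises (red) and 13 falls (blue) lie in the corners beyond them, most of them close to a line. Probe sets beyond the axis limits are not drawn.

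The values behind the choice lay close to its limits for many members, and they are given with no test. The changes in gun5 ran from 1.02 to 1.94 among the rises (median 1.14) and from -1.55 to -1.01 among the falls (median -1.16). FDH (1.02) and ASPGB1 (1.06) were the rises nearest to the threshold, and AT1G73090 (0.98) and AT4G38020 (0.97) lay just outside. Among the falls, AT3G50340 and 252534_at (both -1.01) lay just inside, and 252605_s_at (-0.999) and 259010_at (-0.99) just outside. At the limit for the other genotypes, AT4G18650 (0.39 in gun1-9) and AT1G02110 (0.35 in Col-0) were just inside among the rises, with 252534_at (-0.40 in Col-0, just under the limit) and CSLC04 (-0.37 in gun1-9) among the falls. CIL, which changed by 1.43 in gun5 but by 0.43 in Col-0, was just outside, as were AT5G55580 (0.45 in gun1-9), 249383_at (-0.41 in gun1-9) and 265715_s_at (-0.42 in gun1-9).

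The other genotypes were not always flat. Their changes were limited by the rule, so they are described with no test. Among the 10 rises the median change was 0.26 in Col-0 and 0.25 in gun1-9, against medians of 0.03 and 0.02 over all probe sets that could be chosen, and 9 of 10 were above 0 in each of the genotypes. Among the 13 falls the median change was -0.02 in Col-0, with 6 above 0, and -0.22 in gun1-9, with 3 above 0. Each rise was therefore larger in gun5 than in Col-0 by 0.68 to 2.08, and each fall was deeper, with a difference of gun5 minus Col-0 between -1.63 and -0.62.

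The largest rise was that of AT4G18650 (probe set 254634_at). Its intensity was 4.22, 3.36 and 3.05 in the 3 untreated gun5 arrays and 11.2, 16.3 and 23.4 in the 3 treated ones. The other 12 arrays lay between 2.82 and 5.65, so that every treated gun5 array was above every other array of the study. The mean went from 3.54 ± 0.606 to 16.98 ± 6.14 (SD, n = 3 arrays), a change of 1.94. In 3 groups its mean was below 2.26 on the log2 scale, the average first quartile of an array, which was true of no other member, and the pseudocount of 1 makes its fold smaller on this scale.

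AT2G40960 (probe set 267078_at) showed 2 differences between the genotypes. In gun5 it went from 23.9, 34.1 and 33.9 without the herbicide to 129, 85.2 and 83.1 with it, a change of 1.65. In Col-0 it read 31.8, 38.01 and 30.8 untreated and 39.95, 45.7 and 33.2 treated. In gun1-9 it read 20.4, 20.6 and 18.7 untreated and 24.4, 21.7 and 23.97 treated, so that all 6 gun1-9 arrays were below all 6 Col-0 arrays, and the 3 treated gun5 arrays were above the other 15. Untreated gun5 lay within the range of Col-0 or below it.

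FDH (probe set 246595_at) read 538, 494 and 451 in untreated gun5 and 939, 1086 and 983 in treated gun5, a change of 1.02 and a fold of 2.03. Col-0 read 441, 413 and 389 untreated and 455, 579 and 540.2 treated, and gun1-9 362, 391.6 and 398 and 442, 487 and 456. Treated gun5 again stood above all other arrays, and the changes in Col-0 (0.34) and gun1-9 (0.27) were in the same direction and smaller.

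ASPGB1 (probe set 258338_at) went in gun5 from 13.2, 12.6 and 11.4 to 20.1, 30.7 and 31.6, a change of 1.06. It read 13.02, 17.5 and 18.6 in untreated and 24.6, 17.8 and 18.3 in treated Col-0, and 19.1, 16.9 and 15.7 and 14.1, 14.9 and 17.1 in gun1-9. One treated Col-0 array was above the lowest treated gun5 array, so the treated groups overlapped, and untreated gun5 was the lowest group mean.

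AT5G24690 (probe set 246958_at) went from 378, 390.2 and 453 to 803, 905 and 957 in gun5 (change 1.12), and its 12 arrays of the other genotypes lay between 412 and 606. AT1G48650 (probe set 256140_at) went from 164, 155 and 147 to 349, 303 and 354 (change 1.102), with the other 12 arrays between 177 and 238. For AT1G48650 both gun5 groups were outside that range, the untreated one below it and the treated one above it. AT1G02110 (probe set 264176_at) went from 19.7, 15.98 and 22.6 to 36.95, 36.7 and 52.5 (change 1.07). Here treated Col-0 arrays at 37.3 and 38.1 and a treated gun1-9 array at 37.1 each exceeded 2 of the 3 treated gun5 arrays.

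The 3 rises without a gene name were 266423_at (1.38 in gun5, from 8.40 ± 0.217 to 23.8 ± 4.94), 256149_at (1.22, from 28.9 ± 7.24 to 67.3 ± 3.52) and 248547_at (1.15, from 37.4 ± 2.91 to 84.3 ± 8.35). Their changes in Col-0 were 0.28, 0.29 and 0.02, in the same order. In all 3, treated gun5 stood above the other 15 arrays.

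**Figure D2:**
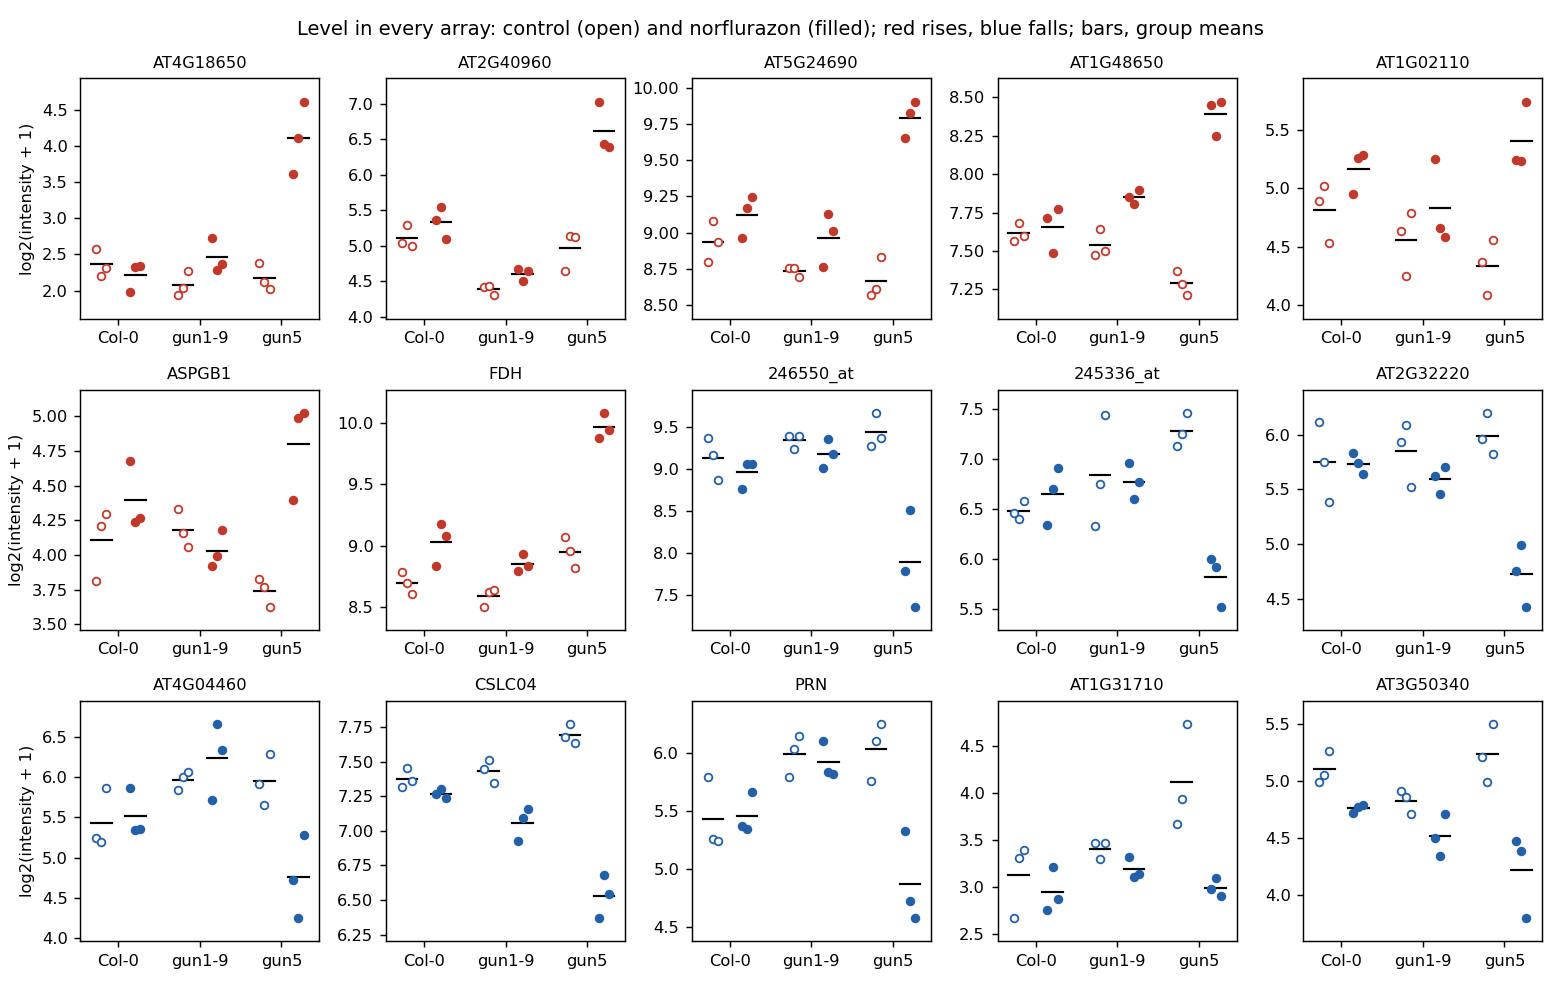
Level of 15 members in every array, as log2(intensity + 1): the 13 with a single gene and the pair of others with the largest changes, 246550_at and 245336_at. Open points are control arrays and filled points norflurazon arrays, 3 per group, with black bars at the group means; in gun5 the open and filled points are apart in every panel. Vertical axes differ between panels.

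Among the falls, the largest changes belonged to probe sets without a gene name. The intensity of 246550_at was 619.7, 816 and 662 in untreated and 219.8, 366 and 164 in treated gun5 (change -1.55), and between 436 and 675 in the 12 arrays of the other genotypes. The intensity of 245336_at was 139.6, 151 and 176 in untreated and 63.2, 59.6 and 45.1 in treated gun5 (change -1.46), against 79.6 to 172 elsewhere. In both, the 3 treated gun5 arrays were the lowest of all 18.

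CSLC04 (probe set 257071_at) had the smallest standard error among the falls. Untreated gun5 read 203, 217 and 198 and treated gun5 81.9, 101 and 92.3, a change of -1.16 and a fold of 0.447. Col-0 read 158, 174 and 163 untreated and 153, 157 and 149.9 treated, and gun1-9 173, 181 and 161 and 120.4, 136 and 142. Both gun5 groups lay outside the range of the other 12 arrays, the untreated one above it and the treated one below it, and the change between the gun1-9 group means was -0.37.

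PRN (probe set 251513_at) went from 53.01, 67.7 and 74.98 in untreated to 39.05, 25.4 and 22.97 in treated gun5, a change of -1.16. Col-0 read 54.2, 37.4 and 36.9 untreated and 40.4, 39.6 and 49.7 treated, and gun1-9 54.3, 64.5 and 69.6 and 67.7, 56.2 and 55.4. The highest treated gun5 array was above the lowest Col-0 arrays, so treated gun5 did not stand clear of Col-0, while it was below all 6 gun1-9 arrays.

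AT2G32220 (probe set 265730_at) went from 61.04, 72.4 and 55.5 to 26.1, 30.9 and 20.6 in gun5 (change -1.26), and its treated gun5 arrays were below the other 15, of which the Col-0 and gun1-9 arrays lay between 40.8 and 68.4. AT4G04460 (probe set 255345_at) went from 59.2, 49.2 and 77.02 to 25.4, 18.1 and 38.03 (change -1.20), with treated gun1-9 as the highest group at 77.2 ± 24.2. Its replicates were far apart in several groups, and the treated gun5 arrays overlapped those of Col-0.

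AT1G31710 (probe set 246602_at) stood apart on the untreated side. In untreated gun5 it read 11.7, 14.2 and 25.5 and in treated gun5 6.87, 7.56 and 6.47 (change -1.12), and in the 12 other arrays between 5.37 and 10.1. The untreated gun5 arrays were the highest of all 18, and the treated ones lay within the range of Col-0. AT3G50340 (probe set 252204_at) went from 35.9, 30.8 and 44.2 to 21.2, 19.9 and 12.97 (change -1.01), with changes of -0.34 in Col-0 and -0.31 in gun1-9. The remaining 5 falls, 254389_s_at, 250155_at, 253578_at, 252921_at and 252534_at, changed by between -1.32 and -1.01 in gun5.

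The next question was on which side gun5 stood apart, untreated or treated. Each gun5 group mean was set against the mean of the 4 groups of Col-0 and gun1-9, as a description, because these values share arrays with the rule. Among the 10 rises, treated gun5 was above that mean in all 10 by 0.56 to 1.83 (median 0.88), and untreated gun5 was below it in 8 (median -0.30). Treated gun5 was the highest of the 6 groups for all 10 rises, and untreated gun5 the lowest for 7. Among the 13 falls, treated gun5 was below the mean of the 4 groups in all 13 (median -0.82) and untreated gun5 was above it in all 13 (median 0.41, range 0.12 to 0.95). The treated departure was the larger one for all 10 rises and for 11 falls, the exceptions being AT1G31710 and 252921_at.

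In terms of single arrays, the control and norflurazon arrays of gun5 did not overlap for any of the 23 members. Over all 22746 probe sets, 23.0% had the treated gun5 arrays wholly above the untreated ones and 18.5% wholly below. Because the rule used this contrast, nothing is read from that count. For 8 of 10 rises the 3 treated gun5 arrays were above all other 15 (background 1.90%), and for 5 of 13 falls they were below all other 15 (background 1.49%). The untreated gun5 arrays lay beyond the 12 arrays of the other genotypes for 2 rises (248547_at and AT1G48650, below; background 1.01%) and for 2 falls (CSLC04 and AT1G31710, above; background 1.00%). These counts also share the rule's arrays and carry no test.

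**Figure D3:**
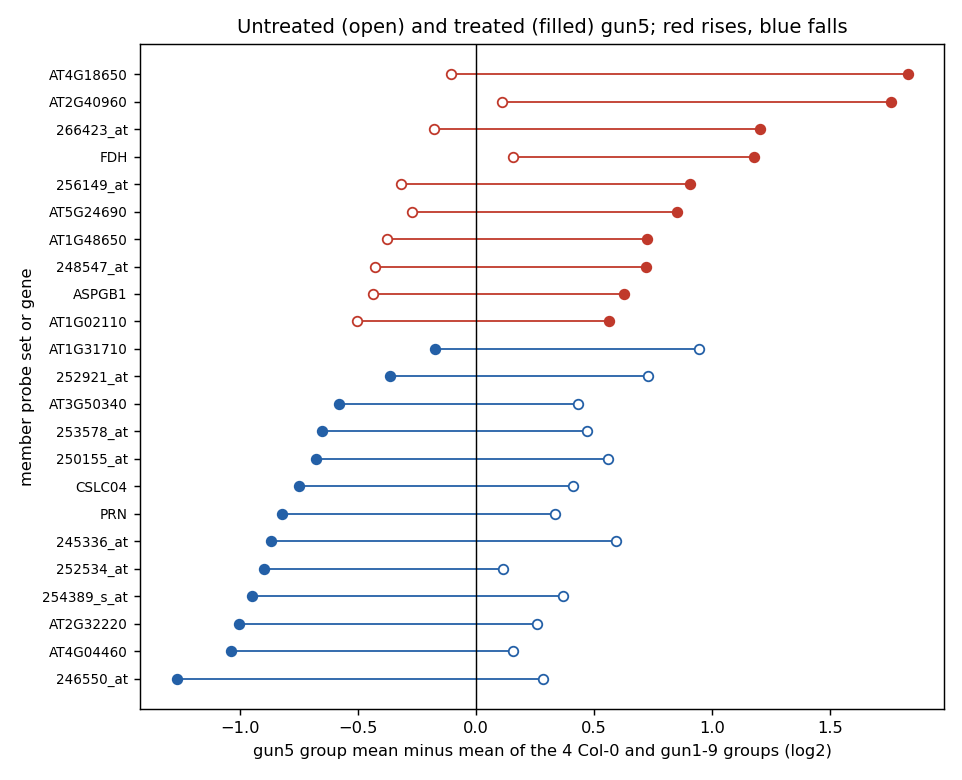
Departure of gun5 from the mean of the 4 Col-0 and gun1-9 groups (horizontal axis, log2) for each of the 23 members (vertical axis), untreated (open) and treated (filled). The filled points lie farther from 0 than the open ones except for AT1G31710 and 252921_at, and for most members the open and filled points lie on opposite sides of 0.

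The level of gun5 against Col-0, averaged over both treatments, was fitted with limma over all 22746 probe sets, 2-sided and with Benjamini-Hochberg adjustment. For the members it is a description, with no test. This average equals the untreated difference plus 0.5 times the difference between the changes, and the rule fixed the sign of that second term. The term added 0.34 to 1.04 for the rises (median 0.50) and between -0.82 and -0.31 for the falls (median -0.62). The fit called 5 of 10 rises higher and 0 lower (7 and 0 at an unadjusted p under 0.05), and of 13 falls 1 higher and 2 lower, where 9.04% of all probe sets were higher and 10.9% lower (45.4% of the calls were higher, and 62.1% with each array centred on its median). The shares over all probe sets are those at an adjusted p under 0.05. Nothing is read from the counts among members, and for the falls they were also near the share over all probe sets.

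Untreated gun5 enters the change that chose the members. The choice favours low untreated values among rises and high ones among falls, so the signs below are a description with no test. The untreated difference from Col-0 was negative for 9 of 10 rises (median -0.23) and positive for all 13 falls (median 0.51). FDH was the rise with a positive one (0.25), so that gun5 was above Col-0 with and without the herbicide, and its averaged difference was 0.60 ± 0.07 (SE of the limma fit). AT4G18650 had -0.19 untreated and 0.85 ± 0.14 on the average, and AT2G40960 -0.14 and 0.57 ± 0.12. ASPGB1 had -0.36 untreated and 0.02 ± 0.12 on the average, the untreated group being low by about as much as the treated one was high. Among the falls, PRN showed the same balance with 0.60 untreated and 0.01 ± 0.14 on the average. AT1G31710 had the largest untreated difference of the named falls, 0.99, and remained above Col-0 on the average (0.52 ± 0.16), while CSLC04 had 0.32 untreated and -0.21 ± 0.07 on the average.

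The same average for gun1-9 against Col-0 does not contain the change in gun5, and the rule kept the changes of both genotypes under 0.4 with no set sign, so it was tested. Here the second term lay between -0.32 and 0.27 over all members. The test called AT2G40960 lower (-0.72 ± 0.12, limma adjusted p = 0.000308) and no rise higher, where 7.05% of all probe sets were lower and 7.34% higher. At an unadjusted p under 0.05, 2 rises were lower and 0 higher. The shares over all probe sets are those at the adjusted threshold, so nothing is read from unadjusted counts. The call of AT2G40960 held in all 25 alternatives, and its untreated difference was -0.72 as well. Among the falls, the limma fit gave 4 higher and 2 lower at an unadjusted p under 0.05, again read no further. At the adjusted threshold, 3 falls were higher in gun1-9 and 0 lower. They were PRN (0.51 ± 0.14, adjusted p = 0.0163), AT4G04460 (0.63 ± 0.19, adjusted p = 0.0341) and 252534_at (0.40 ± 0.13, adjusted p = 0.0445). The call of PRN held in all 25 alternatives. That of AT4G04460 was lost in 8, without replicate 1 or 2 of untreated Col-0, replicate 2 or 3 of treated Col-0, or replicate 2 or 3 of either gun1-9 group (adjusted p = 0.0613 to 0.0924). That of 252534_at was lost in 14, with a pseudocount of 16 (adjusted p = 0.0511), with only the 12 arrays compared (adjusted p = 0.0799) and with the removal of any 1 of 12 arrays (adjusted p = 0.0518 to 0.122), which were all but replicate 1 of untreated and replicate 3 of treated Col-0, replicate 1 of untreated and replicate 2 of treated gun1-9, and replicates 1 and 2 of treated gun5.

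**Figure D4:**
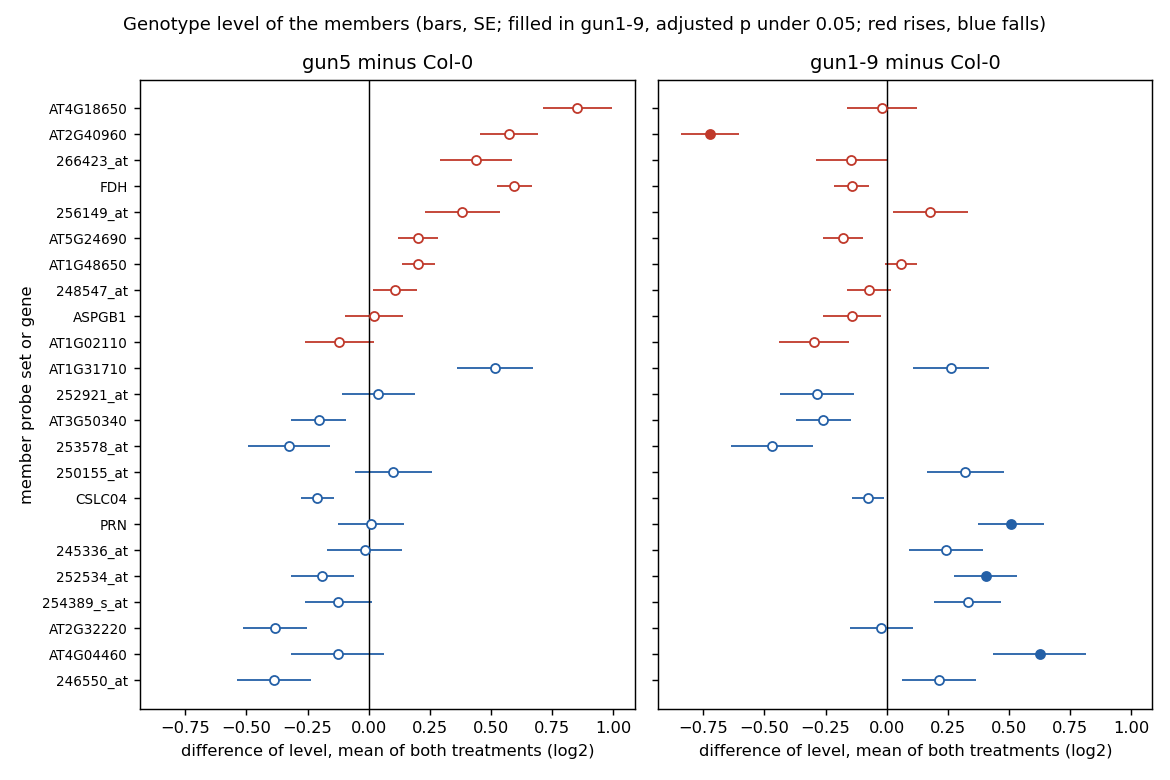
Difference of level from Col-0, averaged over both treatments, for gun5 (left) and gun1-9 (right), in log2 with standard errors from limma. Filled points, in the gun1-9 panel only, passed an adjusted p of 0.05; the gun5 panel is a description, since the changes that chose the members enter it. In gun1-9, AT2G40960 (red, a rise) is called below 0 and 3 falls (blue) above 0.

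How far the pattern extended to arrays not used for the choice was read by applying the rule to 2 replicates of each group and taking the changes in the third, with no test. With replicate 3 left out, 7 rises and 13 falls were chosen, and the median change in gun5 in replicate 3 was 1.08 and -1.07, all of the same sign as chosen. With replicate 1 left out, the 18 rises chosen at a median of 1.101 had a median of 0.75 in replicate 1, and the 17 falls chosen at -1.12 had -0.77. With replicate 2 left out, the 12 rises went from 1.17 to 0.72 and the 23 falls from -1.15 to -0.80.

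Of the probe sets so chosen, 7, 4 and 4 rises and 8, 11 and 5 falls were among the 23 members, for replicates 1, 2 and 3 left out, so many of the probe sets followed here were not members with all replicates. The direction in gun5 was the same in the unused replicate for 17 of 18, 12 of 12 and 7 of 7 rises and for 16 of 17, 21 of 23 and 13 of 13 falls, in the order of replicates 1, 2 and 3. This was not counted over all probe sets past 1 in gun5, so nothing about a pattern limited to gun5 is read from it. The whole rule was met again by fewer, namely 4, 3 and 4 of these rises and 1, 4 and 2 of these falls. Both other genotypes stayed under 0.4 in the unused replicate for 9, 6 and 4 of the rises and 6, 12 and 2 of the falls. The membership in a class limited to gun5 therefore depended on the replicates used, and the name describes the group means. Leaving out single arrays gave the same picture for the members themselves. The rule held in all 18 removals for AT2G40960, 248547_at, AT5G24690 and AT1G48650 among the rises and for 246550_at, 245336_at, 254389_s_at and PRN among the falls, and in 12 to 17 removals for the other members.

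**Figure D5:**
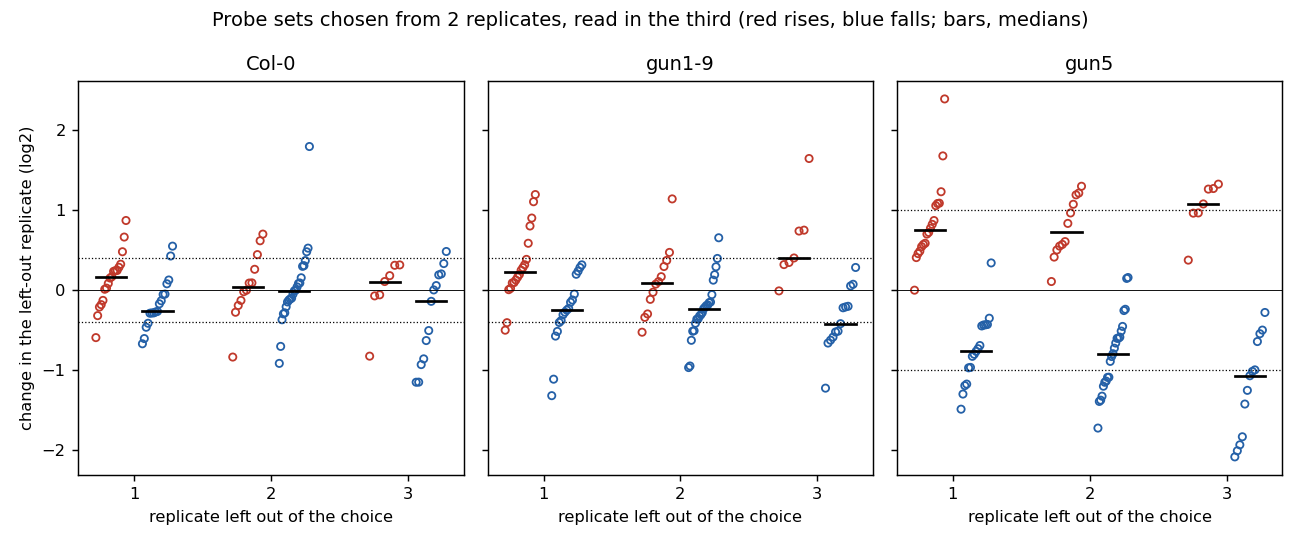
Change with norflurazon in the replicate that was left out of the choice (vertical axis, log2), for probe sets chosen from the other replicates; 1 panel per genotype, with rises in red, falls in blue and medians as black bars. Dotted lines mark the thresholds of the rule. In gun5 nearly all points keep the sign of the choice, and the medians lie nearer to 0 for replicates 1 and 2 than for replicate 3.

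Among the 3 treated gun5 arrays, replicate 3 added most to the change for 6 of 10 rises and 8 of 13 falls, against 47.9% of all 643 probe sets higher and 42.9% of all 857 lower by at least 1 in gun5. Among the 3 untreated gun5 arrays, replicate 3 added most for 5 rises and 6 falls, against 21.8% and 36.9%. The part of this replicate in the members' changes was not tested. A second probe set of the same gene was present for 2 members. For AT5G24690 it changed by 0.75 in gun5, by 0.22 in gun1-9 and by -0.22 in Col-0. For AT1G31710 it changed by -0.79 in gun5, -0.47 in gun1-9 and -0.15 in Col-0. In both the order of the genotypes was the same as in the member, where Col-0 and gun1-9 differed little. The member changes were 0.19 in Col-0 and 0.23 in gun1-9 for AT5G24690, and -0.18 and -0.22 for AT1G31710. In both second probe sets the change in gun5 was under 1 in size. For AT1G31710 the change in gun1-9 was also past the limit of 0.4. Neither second probe set met the rule.

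Neighbouring genes on the chromosome were looked up after the members' values were seen, and 15 probe sets of neighbours were measured. None of them met the rule, and nothing is read from this, since 23 of 22496 probe sets met it. AT1G31690, next to AT1G31710, changed by -1.24, -1.12 and -1.57 in Col-0, gun1-9 and gun5 in 1 of its probe sets and changed by -0.48, -0.18 and -0.43 in the other. AT3G50350, next to AT3G50340, changed by 1.33, 1.08 and 0.78, opposite to AT3G50340. AT1G48660, next to AT1G48650, changed by 1.53 in Col-0 and by 0.02 and 0.12 in gun1-9 and gun5.

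Genes of 17 pathways that respond to stress, hormones or plastid state were listed by locus, 190 genes in all, of which 28 in 12 lists had a probe set of their own. None of the 13 members with a single gene was on a list, and the other members could not be matched by locus. The rule was met by 23 of 22496 probe sets, so nothing is read from the 0 of 28 list genes that met it. For norflurazon in gun5 the limma fit called 6 of the 28 higher and 9 lower (15.7% and 13.2% of all probe sets). In Col-0 it called 4 higher and 12 lower (24.2% and 15.1%), and in gun1-9 7 and 10 (20.5% and 15.7%). The tetrapyrrole list, to which GUN5 belongs, had 6 of 23 genes measured. Of these, 5 fell in Col-0 and 0 rose. In gun1-9, 5 fell and 1 rose, and in gun5, 2 fell and 1 rose. The gene that rose in gun5 was HEMA2, a glutamyl-tRNA reductase gene. The response of gun5 minus that of Col-0 was called higher for 11 of the 28 genes and lower for 3 (8.73% and 8.11% of all probe sets), and higher for all 6 measured tetrapyrrole genes. These lists were chosen with earlier results of these data known.

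Whole seedlings were labelled, so fewer cells of a type and less RNA per cell cannot be told apart. Markers of the organs were fixed by locus, and few had a probe set of their own. Of 4 shoot markers only RCA, rubisco activase, was measured. Its mean intensity was 7567 in untreated and 2053 in treated Col-0, 7374 and 6500 in gun1-9, and 7082 and 7323 in gun5. Of 4 root markers, PYK10, AT5G17820 and AT4G11290 were measured, and their means were higher with norflurazon in every genotype. PYK10 went from 4940 to 6542 in Col-0, 4971 to 5834 in gun1-9 and 5310 to 5418 in gun5. In the same order, AT5G17820 went from 1216 to 1683, 1154 to 1929 and 1257 to 1389. AT4G11290 went from 14.98 to 50.2, 15.03 to 41.7 and 20.9 to 36.8. Of 6 seed markers ICL, the isocitrate lyase of the glyoxylate cycle, was measured, at 260.4 and 2362 in untreated and treated Col-0, 17.37 and 331.7 in gun1-9, and 7.94 and 247.3 in gun5. Their part in the members' changes was not tested.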

How the data were processed

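Per the labels, biotin-labelled total RNA was hybridised to Affymetrix arrays. The authors deposited intensity values per probe set, linear and already scaled so that the arrays have nearly equal medians. The submitters' processing notes list GCRMA and MAS5 without saying which made the table. Such scaling assumes that most transcripts do not change.

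Intensities were taken to log2(intensity + 1). The means of the 6 groups were modelled for 22746 probe sets, control probe sets left out, with limma 3.58.1 (R 4.3.3; moderated by eBayes with 4.48 prior degrees of freedom; no covariate). P-values were adjusted by Benjamini-Hochberg within each contrast and called under 0.05. The test of the level of gun5 minus Col-0 was run on simulated arrays with independent normal noise and no treatment effect. It called 98.5% of the 200 probe sets given a difference of 1 on the log2 scale. The largest averaged difference of a member in gun5 was 0.85, so this share does not apply to differences of the members' size. No difference was simulated for gun1-9. Figures were drawn with matplotlib 3.10.9.

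The annotation gave 1 gene for 13513 probe sets, several for 503 and did not list 8730. Of the 13513, 13436 were found in the RefSeq gene table (TAIR10.1), used for symbols and neighbours. No coordinates are given, because no genome build is named for the probe sets in the sources used here. Named genes are all members with 1 gene, the probe sets nearest to each threshold, and list genes whose response differed between gun5 and Col-0. The averaged level of gun5 minus Col-0, fitted as a test, is given for members as a description, because the changes that chose them enter it. The members, lists and contrasts were chosen with earlier results of these data known. The look at neighbouring genes and the response difference of list genes were added after values had been seen.

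Alternatives were quantile normalisation, arrays centred on their medians, a pseudocount of 16, a filter on dim probe sets, a replicate block, other eBayes settings, only the 12 arrays compared, other limits of the rule, and each array or replicate left out.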

Additional observations from a re-analysis of the deposited data

Results flagged for a closer look

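The norflurazon response of gun5 differed from that of Col-0 for 14 of the 28 measured genes of the pathway lists, by the limma test of the difference itself, adjusted over all 22746 probe sets. None of them met the rule of the members, which 23 of 22496 probe sets met. Changes are given for Col-0, gun1-9 and gun5, in that order, and the difference is gun5 minus Col-0 on the log2 scale, ± SE.

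All 6 measured tetrapyrrole genes had a positive difference. CHLI2, a subunit of magnesium chelatase, changed by -1.96, -1.01 and -0.27, with a difference of 1.68 ± 0.18 (adjusted p = 2.73e-06). CHLM, the magnesium protoporphyrin methyltransferase, changed by -1.94, -0.64 and -0.31, a difference of 1.63 ± 0.13 (adjusted p = 8.92e-08). HEMA2, a glutamyl-tRNA reductase gene, changed by 0.05, 0.66 and 1.11, a difference of 1.06 ± 0.29 (adjusted p = 0.0159). GSA1 changed by -1.04, -0.71 and -0.10, a difference of 0.94 ± 0.14 (adjusted p = 7.28e-05). PORB changed by -4.76, -3.29 and -3.85, a difference of 0.91 ± 0.18 (adjusted p = 0.00181). HEMB1 changed by -0.78, -0.41 and 0.09, a difference of 0.87 ± 0.13 (adjusted p = 6.91e-05). For PORB the change in gun1-9 lay farther from that in Col-0 than the change in gun5 did.

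BHLH101 and PYE, transcription factors of the iron deficiency response, differed by 1.33 ± 0.33 (adjusted p = 0.00816) and 1.03 ± 0.33 (adjusted p = 0.0403). BHLH101 changed by -0.63, -0.53 and 0.70, and PYE by -0.94, -0.87 and 0.09. BGLU28, a beta-glucosidase gene induced by sulfur limitation, changed by -0.22, 0.14 and 0.78, a difference of 1.00 ± 0.20 (adjusted p = 0.0015). CCS, the copper chaperone of superoxide dismutase, changed by 2.05, 2.96 and 3.19 and differed by 1.14 ± 0.21 (adjusted p = 0.00082). The clock gene GI changed by -0.32, 0.86 and 0.70 and differed by 1.02 ± 0.30 (adjusted p = 0.0252). Its change in gun1-9 also lay farther from that in Col-0 than the change in gun5 did.

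Negative differences were found for 3 genes. GH3.3, which encodes an enzyme that conjugates auxin to amino acids, changed by 1.08, -0.05 and -0.68, a difference of -1.76 ± 0.29 (adjusted p = 0.000315). WES1, of the same enzyme family, changed by 1.42, 0.66 and 0.20 and differed by -1.22 ± 0.23 (adjusted p = 0.000978). BCAT4, an aminotransferase of glucosinolate synthesis, changed by -1.17, -1.32 and -2.24 and differed by -1.07 ± 0.30 (adjusted p = 0.0223).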

How the results depend on the processing

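The count of members depended on the pseudocount, on the limit for the other genotypes and on the arrays used more than on the scaling. Against 10 rises and 13 falls, a pseudocount of 16 gave 4 and 6 (3 and 4 of them members), a limit of 0.3 for the other genotypes gave 5 and 8, and a limit of 0.5 gave 13 and 19. Applied without one of replicates 1 to 3 of every group, the rule gave 7 to 18 rises and 13 to 23 falls, with 18 rises without replicate 1 and 23 falls without replicate 2; without single arrays it gave 8 to 14 rises and 11 to 22 falls, the 22 without replicate 1 of treated gun5. Quantile normalisation gave 10 and 13, of which 9 and 10 were members, and centring gave 12 and 10.

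The direction of no called level difference was reversed under any of the 25 alternatives. Counts in gun5 are descriptions, since the changes that chose the members enter them. The number of rises called in gun5 against Col-0 was 3 to 5 when single arrays were left out, against 5. The number of falls called was 0 to 3 in this way, against 3, and 1 with arrays centred, with a pseudocount of 16 and with only the 12 arrays compared. In gun1-9, 1 to 4 falls were called when single arrays were left out, against 3. Over all probe sets, 4531 were called in gun5 (45.4% of them higher) and 3866 to 4798 without single arrays. Centring on the median moved the share of higher calls to 62.1%, with 3926 calls. In gun1-9, 3272 were called, and 2802 to 3433 without single arrays. The causes were not tested.

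The replicate numbers were not used to pair the samples in the main fit. Same-numbered arrays deviated together weakly, with correlations of -0.11 to 0.19, over 0.1 in 7 of 45 pairs. Their median correlation was 0.05, against -0.02 for arrays of other numbers, and 14 of 18 arrays correlated best with their own number. With the replicate number as a block, 4674 probe sets were called in gun5 and 3404 in gun1-9, and 6 rises and 3 falls among the members in gun5.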
